A study of Mus musculus with 14 samples.

Results

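Prominin-sorted cells of the subependymal zone (SEZ) were compared with astrocytes sorted from the diencephalon, across all genes that the arrays could name. The groups were taken from the sample titles: SEZ_Prom (2 arrays) and DIEC_GFP (4 arrays), 6 of the 14 arrays of the study, and 18193 genes were tested. All animals were hGFAP-eGFP mice of 8 weeks, which carry a transgene for enhanced green fluorescent protein (GFP) under the human GFAP promoter. SEZ_Prom cells came from the SEZ, were selected by fluorescence-activated sorting for staining of the surface protein prominin and are called neural stem cells in the labels, which do not say whether they carried GFP. DIEC_GFP cells came from the diencephalon, were selected for GFP and are called astrocytes. The study also sorted SEZ cells for GFP (SEZ_GFP, 2 arrays), for GFP together with prominin (SEZ_GFPprom, 4 arrays) and for CD24 (SEZ_CD24, 2 arrays). Region and gate differ together between the groups compared, so their parts in any difference cannot be told apart.

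The SEZ lines the lateral ventricle beside the striatum. Its astrocyte-like stem cells divide slowly and give rise to dividing progenitors and then to neuroblasts, and ependymal cells with motile cilia separate it from the ventricle. Prominin is a membrane protein of protrusions such as cilia and microvilli, found on stem cells, ependymal cells and other epithelia. The diencephalon holds thalamus and hypothalamus, where astrocytes take up transmitters and potassium and are coupled by connexins.

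RNA was amplified in a pair of rounds and hybridised to Affymetrix mouse arrays. Values below are linear intensities per array, and differences are SEZ_Prom minus DIEC_GFP on the log2 scale with the standard error (SE) of the fit. A gene is called higher or lower where limma's adjusted p is under 0.05. Arrays of a group are labelled as biological replicates, but whether each came from other animals is not stated. The p-values therefore reflect array-to-array spread only, and the small number of arrays limits precision. The SEZ_Prom arrays correlated with each other at r = 0.97 across genes, the DIEC_GFP arrays at 0.942 to 0.963 and arrays of different groups at 0.907 to 0.933. The log2 ratio of 3' to 5' signal of the control transcripts, which rises as the labelled RNA is biased to 3' ends, moved with the groups: it was 4.63 ± 0.07 (SD, n = 2) in SEZ_Prom and 5.40 ± 0.29 (SD, n = 4) in DIEC_GFP, without overlap. Its part in the results was not tested beyond a fit that holds it as a covariate. Counts from that fit are given below for each list that it changes. Of the 146 calls among the genes chosen for naming, that fit kept 66. Its lost calls are given below for only part of these genes. In bulk RNA of sorted cells, fewer cells of a type and less RNA per cell cannot be told apart.

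The sorting genes did not separate the groups. Prom1, which encodes prominin, stood at 194 and 345 in the SEZ_Prom arrays and at 271, 224, 263 and 290 in DIEC_GFP (difference -0.01 ± 0.47 SE, adjusted p = 0.999). Gfap, the intermediate filament of astrocytes, read 143 and 279 against 572, 323, 403 and 263 (-0.91 ± 0.58, adjusted p = 0.455), and the groups overlapped for both genes. Cd24a, a surface protein of neuroblasts and ependymal cells, read 609 and 264 against 496, 868, 718 and 391 (-0.56 ± 0.40, adjusted p = 0.514). In the comparison with DIEC_GFP astrocytes, the marker genes did not bear out the stem cell label. Of 24 measured stem cell and radial glia genes 1 was called higher in SEZ_Prom and 5 lower, whereas 13 of 16 striatal neuron genes and 6 of 11 choroid plexus genes were called higher. Lrig1 and Hes1, among the 5 lower, were about as low in SEZ_GFPprom and SEZ_GFP, so these counts cannot decide the label. The group is therefore named here by its gate. The astrocyte label of DIEC_GFP was met by the high levels of Aqp4, Gjb6, Agt and Itih3 described below. Other astrocyte genes did not separate the groups: Slc1a2 (0.32), Glul (0.11), Aldoc (-0.31), S100b (-0.35) and Aldh1l1 (-0.39) were not called. The DIEC_GFP arrays also held ependymal and oligodendrocyte transcripts.

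Across all genes 609 were called higher in SEZ_Prom (3.35%) and 542 lower (2.98%). A difference of 2-fold or more was reached by 569 and 505 of them. The median difference of all genes was 0.02. List counts below are to be read beside these shares of 3.35% higher and 2.98% lower. The groups did not overlap for 25.9% of all genes, and for 1150 of the 1151 called. These counts rest on the pair of SEZ_Prom arrays: 194 genes were called higher and 157 lower without SEZ_Prom replicate 1, and 223 and 216 without replicate 2. With the 3' to 5' ratio as a covariate the counts were 362 and 217, and 393 of the 1151 calls were kept.

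**Figure D1:**
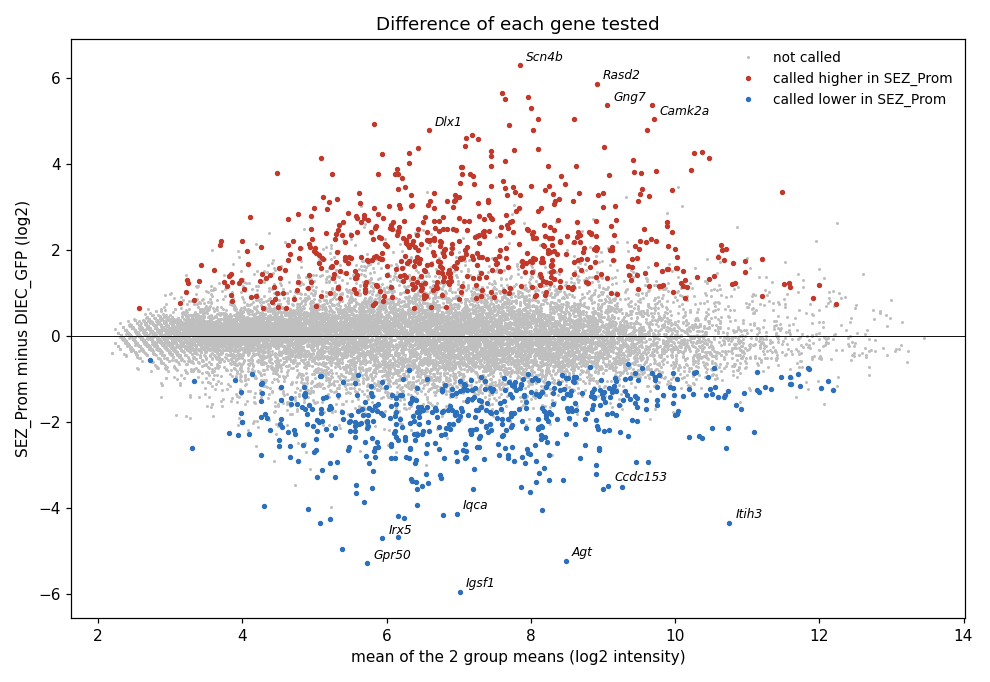
Difference of SEZ_Prom minus DIEC_GFP (log2, vertical) against the mean of both group means (log2 intensity, horizontal) for the 18193 genes tested; red points are the 609 genes called higher in SEZ_Prom, blue points the 542 called lower and grey points those not called. Scn4b has the highest difference (6.31) and Igsf1 the lowest (-5.95).

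Genes of the projection neurons of the striatum, the nucleus that the SEZ adjoins, made up the group with the highest median difference. Of 16 measured members 13 were called higher and none lower, against 3.35% of all genes, and the median difference was 2.77. Scn4b, a sodium channel subunit of striatal neurons, read 1829 and 2307 in SEZ_Prom and 83, 20, 16 and 17 in DIEC_GFP, and so was 79.2-fold higher (6.31 ± 0.63, adjusted p = 0.000329). Both SEZ_Prom arrays lay far above all 4 DIEC_GFP arrays, and DIEC_GFP replicate 1 lay above the other three. Rasd2, a small GTPase of the same neurons, read 3996 and 3440 against 169, 56, 83 and 20 (5.88 ± 0.68, adjusted p = 0.000614). For Gng7, a G protein subunit that links dopamine receptors to adenylyl cyclase, the values were 3050 and 3887 against 87, 53, 92 and 111 (5.38 ± 0.46, adjusted p = 0.000122). Ppp1r1b, the phosphatase inhibitor DARPP-32 of dopamine signalling, read 921 and 565 against 69, 63, 92 and 44, an 11.1-fold difference (3.48 ± 0.40, adjusted p = 0.000614). Pde10a, a phosphodiesterase of these neurons, read 615 and 702 against 60, 45, 58 and 85 (3.44 ± 0.28, adjusted p = 9.77e-05). In none of these genes did the groups overlap. The summed intensity of the 16 genes was 18728 to 19947 in SEZ_Prom and 1286 to 1992 in DIEC_GFP. With the 3' to 5' ratio as a covariate 7 members were called higher.

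The 15 genes with the highest differences also held the following, none of which was chosen by function. Syndig1l, a relative of an AMPA receptor regulator, read 1219 and 1552 against 61, 19, 30 and 16, or 50.4-fold higher (5.65 ± 0.50, adjusted p = 0.000122). Ddn, the postsynaptic protein dendrin, read 4808 and 5841 against 439, 78, 113 and 67 (5.38 ± 0.64, adjusted p = 0.00074). Camk2a, the kinase of excitatory synapses, read 4108 and 5590 against 348, 154, 176 and 47 (5.05 ± 0.61, adjusted p = 0.000789). Of its 6 probe sets 2 were called higher. The SEZ_Prom arrays lay many-fold above the brightest DIEC_GFP array in each of these genes. Lzts1, another postsynaptic protein, was 30.3-fold higher, Wipf3, an actin regulator, 39.5-fold, and Celf5, a neuronal RNA-binding protein, 33.5-fold. Camk4, Rasgef1a, Dlgap2 and Hpca also stood among the 15 highest, with differences of 4.81 to 5.52, and the calls of all 4 ended with either SEZ_Prom array left out (adjusted p = 0.0813 to 0.133). With the 3' to 5' covariate those of Camk4 (adjusted p = 0.0693) and Dlgap2 (0.0818) ended too.

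Of 14 measured general neuron markers 2 were called higher, Camk2a and Thy1, and none lower, against 3.35% and 2.98% of all genes, with a median difference of 0.97. Rbfox3, the nuclear protein NeuN, differed by 3.24 ± 0.92 and was not called (adjusted p = 0.0613); it lies outside the naming rule and was chosen after its values were seen. Snap25, a protein of transmitter release, read 1269 and 676 against 438, 552, 498 and 20 (2.06 ± 1.10, adjusted p = 0.348). DIEC_GFP replicate 4 lay far below the other three, which stood below both SEZ_Prom arrays. The summed intensity of the 14 genes was 13636 to 14610 in SEZ_Prom and 1014 to 7365 in DIEC_GFP. The call of Thy1 ended without SEZ_Prom replicate 1 (adjusted p = 0.0969) or 2 (0.117), which left 1 member called.

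Transcription factors of the telencephalon were also higher in SEZ_Prom: 6 of 17 members were called higher, against 3.35% of all genes, and none lower. Their median difference was 0.92. Bcl11b, a factor of striatal and deep cortical projection neurons, read 1814 and 1606 against 44, 45, 39 and 22, or 47.3-fold higher (5.56 ± 0.62, adjusted p = 0.000514), and all 4 of its probe sets were called higher. Meis2, a factor of the lateral ganglionic eminence and its descendants, read 1352 and 1142 against 118, 89, 64 and 116 (3.73 ± 0.25, adjusted p = 4.09e-05). Foxp1, a forkhead factor of striatal neurons, read 1125 and 1359 against 24, 126, 33 and 136 (4.35 ± 0.62, adjusted p = 0.00211). The groups lay apart in all 3 genes. Lhx2, a factor of the forebrain, was 5.11-fold higher (adjusted p = 0.00567). Without SEZ_Prom replicate 1 the count was 3 of 17 and the call of Lhx2 ended (adjusted p = 0.0873); with the 3' to 5' ratio as a covariate the count was 4 and the call of Foxp1 ended (0.108).

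Markers of the choroid plexus, the epithelium that secretes cerebrospinal fluid, were called higher for 6 of 11 members and lower for none. The share of all genes called higher was 3.35%, and the list's median difference was 2.12. Kl, the hormone co-receptor klotho, read 96 and 72 in SEZ_Prom and 6, 5, 6 and 7 in DIEC_GFP (adjusted p = 3.75e-05). For a gene whose mean in the dimmer group lay under 10, the fold is given with values under 10 set to 10, and for Kl it was 8.31-fold. Aqp1, a water channel of the plexus, read 48 and 56 against 13, 13, 11 and 11 (2.12 ± 0.32, adjusted p = 0.00283). Sostdc1, a secreted BMP and Wnt antagonist, read 89 and 176 against 14, 28, 19 and 16 (2.75 ± 0.42, adjusted p = 0.00296). The bicarbonate transporter gene Slc4a5 was 2.69-fold higher (adjusted p = 0.000122). Ttr, the thyroxine carrier that is the most abundant product of the plexus, read 11943 and 12223 against 1132, 1957, 772 and 8456, which did not pass the test (2.63 ± 1.57, adjusted p = 0.415). DIEC_GFP replicate 4 alone came near the SEZ_Prom level. Without SEZ_Prom replicate 2 the count was 3 of 11 and the call of Sostdc1 ended (adjusted p = 0.0506), and the 3' to 5' covariate also left 3, without Sostdc1 (0.165).

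**Figure D2:**
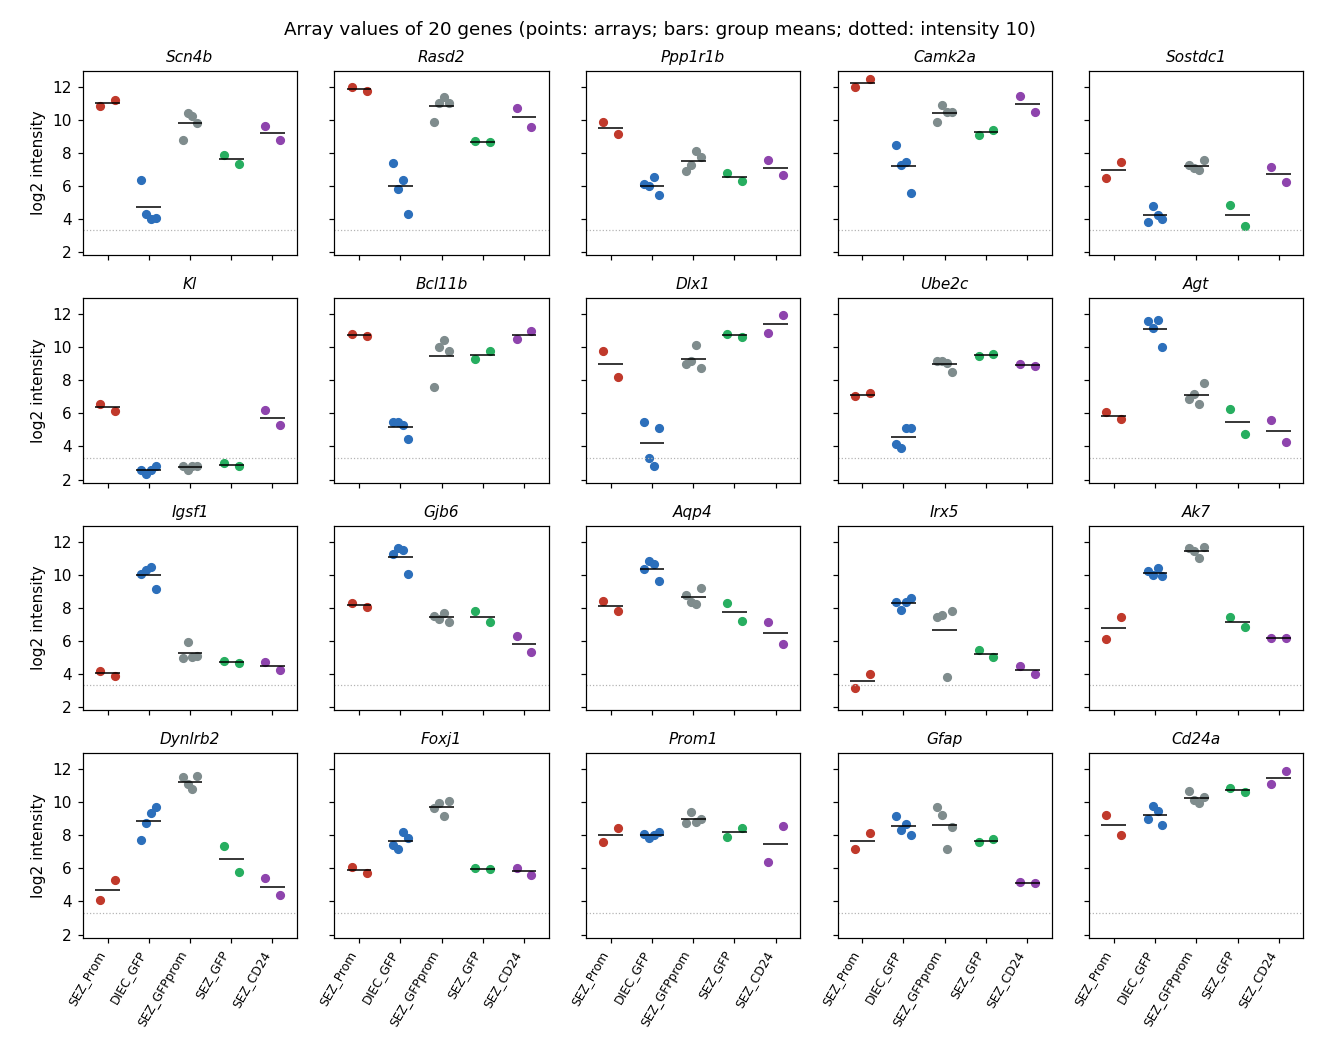
Log2 intensity of 20 genes on all 14 arrays, 1 panel per gene; points are arrays, bars group means and the dotted line an intensity of 10. The striatal genes, Sostdc1, Kl, Bcl11b and Dlx1 lie higher in SEZ_Prom than in DIEC_GFP, Agt, Igsf1, Gjb6, Aqp4 and Irx5 lower, the cilium genes Ak7 and Dynlrb2 are highest in SEZ_GFPprom, and Prom1, Gfap and Cd24a overlap between SEZ_Prom and DIEC_GFP.

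Neuroblast genes were called higher in SEZ_Prom for 9 of 23 members and lower for 1, against 3.35% and 2.98% of all genes. Their median difference was 1.25. Sox11, a factor of new neurons, read 1253 and 741 against 117, 86, 83 and 170, or 8.83-fold higher (3.14 ± 0.32, adjusted p = 0.000334), with all 6 probe sets called. Ccnd2, a cyclin of neural progenitors, read 3400 and 3278 against 802, 468, 969 and 938 (2.13 ± 0.28, adjusted p = 0.00139). Dlx1, a factor of GABA neuron precursors, read 862 and 296 against 45, 10, 7 and 35 (4.79 ± 0.74, adjusted p = 0.0031). The SEZ_Prom arrays disagreed in Dlx1 by more than in Ccnd2, but both lay above every DIEC_GFP array. Dcx, a microtubule protein of migrating neuroblasts, read 591 and 197 against 102, 43, 50 and 98 (2.33 ± 0.48, adjusted p = 0.0146). The adhesion gene Ncam1 was 2.35-fold lower (adjusted p = 0.0214). Of 18 neurogenic transcription factors 4 were called higher and none lower. SEZ_Prom replicate 1 bears on these counts: without it 2 neuroblast genes and 2 neurogenic factors were called higher, and the calls of Dlx1 (adjusted p = 0.059) and Dcx (0.21) ended. That of Ncam1 ended without SEZ_Prom replicate 2 (0.243). With the 3' to 5' covariate 8 neuroblast genes and 3 neurogenic factors were called higher and none lower, and the calls of Dcx (0.0628) and Ncam1 (0.433) ended.

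Genes of dividing cells were higher in SEZ_Prom. Of 29 mitosis genes 17 were called higher, against 3.35% of all genes, and none lower. All 29 differences were positive and the median was 2.26. Of 24 genes of DNA replication 5 were called higher and none lower, with a median of 1.00. Mcm6, a subunit of the replicative helicase, read 198 and 139 against 28, 27, 35 and 33 (2.44 ± 0.27, adjusted p = 0.000422). Cenpa, the histone of centromeres, read 163 and 107 against 29, 35, 16 and 32 (2.30 ± 0.33, adjusted p = 0.00226). Ube2c, an enzyme that marks cyclins for breakdown, read 134 and 148 against 18, 15, 34 and 35 (2.56 ± 0.34, adjusted p = 0.00126). In these 3 genes the groups were apart. Mki67, the common marker of proliferation, read 251 and 464 against 28, 24, 22 and 151 (3.14 ± 0.64, adjusted p = 0.0135), with DIEC_GFP replicate 4 well above the other three. Leaving out SEZ_Prom replicate 1 left 6 mitosis calls, leaving out replicate 2 left 8 and the 3' to 5' covariate left 5; for DNA replication 1, 1 and 2 were left. The call of Mki67 ended in each of these fits (adjusted p = 0.0638, 0.141 and 0.381) and that of Ube2c with the covariate (0.0757).

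The lowest difference of all named genes was that of Igsf1, a membrane glycoprotein known from pituitary and hypothalamus. It read 18 and 15 in SEZ_Prom and 1072, 1270, 1404 and 559 in DIEC_GFP, or 61.9-fold lower (-5.95 ± 0.37, adjusted p = 3.75e-05). Gpr50, an orphan receptor of hypothalamic cells at the third ventricle, read 9 and 8 against 493, 482, 135 and 380, 33.2-fold lower with values under 10 set to 10 (adjusted p = 0.000416). Adcy8, an adenylyl cyclase, read 7 and 8 against 257, 372, 237 and 133 (adjusted p = 0.000122). Both SEZ_Prom arrays stood at the background for Gpr50 and Adcy8, and every DIEC_GFP array was bright. Col23a1, a membrane collagen, was 18.4-fold lower and Anxa1, a phospholipid-binding protein, 25.8-fold lower. The call of Anxa1 ended without SEZ_Prom replicate 1 (adjusted p = 0.082) and that of Col23a1 with the 3' to 5' covariate (0.0759).

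Genes that pattern the diencephalon, all transcription factors but for the ligand Wnt3, were called lower for 3 of 25 members and higher for none, against 2.98% of all genes, and all 3 belong to the Iroquois family of homeobox genes. Irx5 read 9 and 16 against 326, 234, 329 and 389, or 26.2-fold lower (-4.71 ± 0.88, adjusted p = 0.00872). Irx3 read 22 and 12 against 129, 182, 266 and 206 (-3.54 ± 0.66, adjusted p = 0.00875). For Irx2 the values were 19 and 18 against 92, 118, 63 and 65 (-2.14 ± 0.27, adjusted p = 0.000934). In SEZ_GFPprom, Irx5 read 177, 193, 14 and 222, Irx3 196, 61, 20 and 52, and Irx2 29, 20, 24 and 26. Signal of Irx5 and Irx3 was thus not confined to the diencephalon. The other 22 members had differences that were not called, and in 9 of the 25 the SEZ_Prom mean lay under 10. Without SEZ_Prom replicate 2 the calls of Irx3 (adjusted p = 0.1) and Irx5 (0.0509) ended, which left 1, and that of Irx5 also ended without replicate 1 (0.106).

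Astrocyte markers were called lower in SEZ_Prom for 12 of 29 members and higher for none, against 2.98% and 3.35% of all genes. Their median difference was -1.16. This drop was not particular to SEZ_Prom: against DIEC_GFP the median was -1.35 in SEZ_GFP, -1.24 in SEZ_GFPprom and -3.00 in SEZ_CD24. Agt, the angiotensin precursor made by astrocytes, read 67 and 51 in SEZ_Prom and 3126, 2332, 3133 and 1037 in DIEC_GFP, or 37.7-fold lower (-5.24 ± 0.56, adjusted p = 0.000416). Itih3, a carrier of hyaluronan, read 350 and 416 against 9530, 8635, 8160 and 5462 (-4.35 ± 0.47, adjusted p = 0.000416). Gjb6, the astrocyte connexin 30, read 308 and 268 against 2444, 3110, 2861 and 1050 (-2.93 ± 0.41, adjusted p = 0.00184). Every DIEC_GFP array stood above both SEZ_Prom arrays, with replicate 4 the dimmest of its group. Aqp4, the water channel of astrocyte endfeet, read 345 and 226 against 1323, 1779, 1577 and 783 (-2.23 ± 0.46, adjusted p = 0.0147). Slc6a11, a GABA transporter, was 6.59-fold lower (adjusted p = 0.00124) and Etnppl, an enzyme of phospholipid breakdown, 16.5-fold lower (adjusted p = 0.0136). The remaining members, Gfap among them, were not called, and the list's summed intensity was 43634 to 49826 in SEZ_Prom and 58030 to 103798 in DIEC_GFP. Lower calls numbered 7 without SEZ_Prom replicate 1 and 6 without replicate 2, while a fit with the 3' to 5' ratio gave 2. The calls of Aqp4 (adjusted p = 0.0693 and 0.149) and Etnppl (0.0857 and 0.12) ended with either SEZ_Prom array left out, and with the covariate (0.0939 and 0.141). The covariate also ended those of Gjb6 (0.0857) and Slc6a11 (0.0828).

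Of 10 glial connexins, water channels and potassium channels 4 were called lower, against 2.98% of all genes. Gjb6, Aqp4 and the potassium channel Kcnj16 were among them. The plexus channel Aqp1 was the 1 member called higher, against 3.35% of all genes. With either SEZ_Prom array left out 1 was called lower, and without DIEC_GFP replicate 3, 2. The 3' to 5' covariate likewise left 1 lower.

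Ependymal markers had the lowest median of all lists, -2.76, although ependymal cells border the SEZ. Of 17 measured members 15 were called lower in SEZ_Prom, against 2.98% of all genes, and none higher. The groups were apart in all 17, against 25.9% of all genes. Ak7, an adenylate kinase of motile cilia, read 69 and 171 against 1212, 990, 1343 and 960, or 10.3-fold lower (-3.36 ± 0.33, adjusted p = 0.000294). Dynlrb2, a dynein light chain, read 17 and 40 against 207, 423, 660 and 831 (-4.17 ± 0.59, adjusted p = 0.00207). Tm4sf1, a membrane protein, read 51 and 101 against 979, 1434, 722 and 625 (-3.64 ± 0.38, adjusted p = 0.000348). In each of the 3 the dimmest DIEC_GFP array was several fold above the brighter SEZ_Prom array. Enkur, a sperm and cilium protein, was 15.2-fold lower and Tmem212 11.4-fold lower. Foxj1, the master regulator of motile cilia, read 69 and 52 against 173, 144, 288 and 226 (-1.74 ± 0.31, adjusted p = 0.00699). The summed intensity of the list was 1915 to 3525 in SEZ_Prom and 10497 to 15825 in DIEC_GFP. Without SEZ_Prom replicate 1 the count was 7 of 17, and the call of Foxj1 ended without replicate 2 (adjusted p = 0.0826). With the 3' to 5' covariate 15 were called, as before.

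Cilium genes are known to be switched on by RFX factors through the X-box, a pair of inverted half-sites, so the 250 bases before each gene's start (RefSeq, GRCm38.p6) were searched on both strands. An X-box was found in 17 of the 132 promoters of the 5 ependymal and cilium lists (12.9%), against 249 of the 14453 promoters of all genes tested (1.72%). Among those 132 it was found in 8 of 44 genes called lower in SEZ_Prom (18.2%) and in 9 of 88 not called lower (10.2%). The half-site GTTGCC on either strand, which many X-boxes contain, was found in 25% of the 132 and in 12.3% of all. The 4 genes with an X-box and the largest differences in these lists are shown, with the match in capitals and in the direction of transcription. Dynlrb2 and Iqca belong to the named genes, and Dnaic2 and Cfap45 were chosen after their values were seen. The stretches are chr8:116504935-116505004 (+ strand), chr1:90153443-90153512 (- strand), chr11:114727349-114727418 (+ strand) and chr1:172521060-172521129 (+ strand).
Dynlrb2: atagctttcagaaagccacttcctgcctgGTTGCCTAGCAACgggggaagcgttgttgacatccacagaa
Iqca: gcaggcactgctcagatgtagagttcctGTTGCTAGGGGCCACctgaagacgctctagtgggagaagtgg
Dnaic2: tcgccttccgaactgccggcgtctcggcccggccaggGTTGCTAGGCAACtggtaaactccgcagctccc
Cfap45: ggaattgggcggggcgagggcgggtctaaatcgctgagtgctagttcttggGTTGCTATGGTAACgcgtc
The match ended 39 bases before the start in Dynlrb2, 34 in Iqca, 21 in Dnaic2 and 6 in Cfap45. Their differences were -4.17, -4.14, -3.43 and -3.23. A match is a description of these letters and not evidence that a factor bound there.

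Genes of the motile axoneme were also called lower. Of 42 radial spoke and central pair genes 22 were called lower and none higher (median -1.60), against 2.98% and 3.35% of all genes. Of 31 axonemal dynein genes 11 were called lower and 1 higher (median -0.83). Iqca, a protein of the motile axoneme, read 28 and 32 against 571, 464, 778 and 379, or 17.7-fold lower (-4.14 ± 0.47, adjusted p = 0.00052). Armc4, a docking factor of outer dynein arms, read 19 and 21 against 134, 171, 96 and 172 (-2.80 ± 0.28, adjusted p = 0.000334). Dnah6, an inner arm heavy chain, read 60 and 131 against 773, 475, 629 and 677 (-2.83 ± 0.38, adjusted p = 0.00152). The groups were apart in these 3 as well. Spef2 was 12.7-fold lower, Cfap161 8.53-fold and the dynein assembly factor Zmynd10 5.93-fold. Frmpd2, which holds domains of membrane scaffolds, Ttc29, a dynein partner of cilia, Rassf9 and Cfap299 were among the 15 lowest genes of all, at 12.2-fold to 18.9-fold lower. Ak7, Rsph1 and Meig1 stand on both the ependymal and the radial spoke list. Without SEZ_Prom replicate 1 or 2 the radial spoke count was 11 in each case and the dynein count 6 in each case, and no dynein gene was called higher. These counts were 15 and 7 with the 3' to 5' covariate, again with no dynein gene higher.

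Of 39 intraflagellar transport and BBSome genes, which primary and motile cilia share, 4 were called lower and none higher (median -0.62). Of 27 transition zone and centriole genes 6 were called lower and 1 higher (median -0.67). The shares of all genes were 2.98% lower and 3.35% higher. Ift81, a subunit of the transport particle, read 115 and 150 against 735, 662, 471 and 479 (-2.13 ± 0.38, adjusted p = 0.0068). Cetn2, a centriole protein, read 401 and 459 against 1206, 1019, 1413 and 932 (-1.39 ± 0.24, adjusted p = 0.00542). In both the groups did not overlap. Of 15 regulators of multiciliated cells 3 were called lower, namely Foxj1, Rfx4 and Myb. Without SEZ_Prom replicate 1 the transport and transition zone counts were 0, and the calls of Ift81 (adjusted p = 0.0888), Cetn2 (0.0717) and Myb (0.116) ended. Without replicate 2 they were 4 and 1, and that of Rfx4 ended (0.0612). The 3' to 5' covariate left 1 and 0 and ended the calls of Ift81 (0.237), Cetn2 (0.102), Rfx4 (0.19) and Myb (0.177), so that 1 regulator was called. The transition zone gene that was higher was called neither without SEZ_Prom replicate 1 or 2 nor without DIEC_GFP replicate 1, 2 or 3, nor with the covariate.

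Stem cell and radial glia genes were called lower for 5 of 24 members and higher for 1, against 2.98% and 3.35% of all genes. Their median was -0.71. The higher one was Thbs4, a secreted thrombospondin of SEZ astrocytes, which read 150 and 318 in SEZ_Prom and 16, 11, 14 and 27 in DIEC_GFP, or 13.6-fold higher (3.77 ± 0.41, adjusted p = 0.000416). Lrig1, a brake on growth factor receptors that marks slowly dividing stem cells, read 170 and 129 against 2465, 2408, 2026 and 802, or 11.9-fold lower (-3.57 ± 0.51, adjusted p = 0.00222). Ptprz1, a receptor phosphatase of glial progenitors, read 328 and 490 against 1061, 1043, 1735 and 1286 (-1.64 ± 0.23, adjusted p = 0.00207). No array crossed between the groups in these genes. Vim, the filament of radial glia and ependymal cells, was 3.24-fold lower (adjusted p = 0.0198), and Hes1, a Notch target that keeps progenitors undifferentiated, 3.28-fold lower (adjusted p = 0.0309). Mean log2 intensity of Lrig1 was 7.21 in SEZ_Prom, 6.85 in SEZ_GFPprom, 6.89 in SEZ_GFP and 10.78 in DIEC_GFP. Hes1 stood at 6.39, 6.63, 6.69 and 8.10 in the same order. Vim and Ptprz1, in contrast, were called lower in SEZ_Prom than in SEZ_GFPprom and SEZ_GFP as well. The count of lower genes was 2 with either SEZ_Prom array left out, 3 without DIEC_GFP replicate 1, where 3 were called higher, and 1 with the 3' to 5' covariate. The calls of Vim (adjusted p = 0.0731 and 0.192) and Hes1 (0.224 and 0.132) ended with either SEZ_Prom array left out, that of Hes1 also without DIEC_GFP replicate 1 (0.0654) or 2 (0.0631), and the covariate ended those of Vim (0.371), Hes1 (0.131) and Lrig1 (0.066).

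Markers of oligodendrocyte progenitors were called lower for 5 of 11 members, against 2.98% of all genes, and higher for none. Their median was -1.71. This drop was not particular to SEZ_Prom: against DIEC_GFP the median was -1.77 in SEZ_GFP, -2.59 in SEZ_GFPprom and -3.26 in SEZ_CD24. Cspg4, the NG2 proteoglycan, read 69 and 94 against 538, 389, 703 and 401 (-2.61 ± 0.32, adjusted p = 0.000861), and both of its probe sets were called. Vcan, a matrix proteoglycan, was 7.05-fold lower by its brightest probe set (adjusted p = 0.00124), while the mean of its 8 probe sets differed by -0.68 (adjusted p = 0.0802). Pdgfra, the growth factor receptor that defines these cells, read 381 and 573 against 2265, 1893, 1257 and 1003 and was not called (-1.71 ± 0.56, adjusted p = 0.105), although the groups were apart. The summed intensity was 5739 to 7495 in SEZ_Prom and 11104 to 14838 in DIEC_GFP. Without SEZ_Prom replicate 1 the count was 3 and without replicate 2 it was 2. In the fit with the 3' to 5' ratio it was 1, and the call of Vcan ended (0.072).

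Of 12 measured markers of mature oligodendrocytes none was called, with a median of -0.10 and a summed intensity of 37734 to 39715 in SEZ_Prom and 35168 to 53052 in DIEC_GFP. None of 15 microglia markers was called (median 0.41, summed intensity 6776 to 9583 and 3270 to 13968), and Cx3cr1, the fractalkine receptor, read 312 and 261 against 723, 223, 175 and 254. Endothelial genes were mostly dim: Pecam1, an adhesion protein of vessels, read 9 and 11 against 7, 7, 7 and 6, and Cldn5, a tight junction protein of vessels, 29 and 18 against 32, 52, 37 and 128. Of 22 endothelial markers 1 was called lower, the glucose transporter Slc2a1, whose call ended without any 1 of the 6 arrays (adjusted p = 0.0563 to 0.314). The 3' to 5' covariate called 1 oligodendrocyte marker lower. Of 13 mural cell markers 1, Cspg4, was called lower, against 2.98% of all genes. Of 10 fibroblast markers 1, Igf2, was called higher, and its call ended without SEZ_Prom replicate 2 (adjusted p = 0.194) and with the covariate (0.265). None of 23 immediate early and stress genes was called, with a median of -0.16. The part of the transcripts of these cell types in the differences above was not tested.

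**Figure D3:**
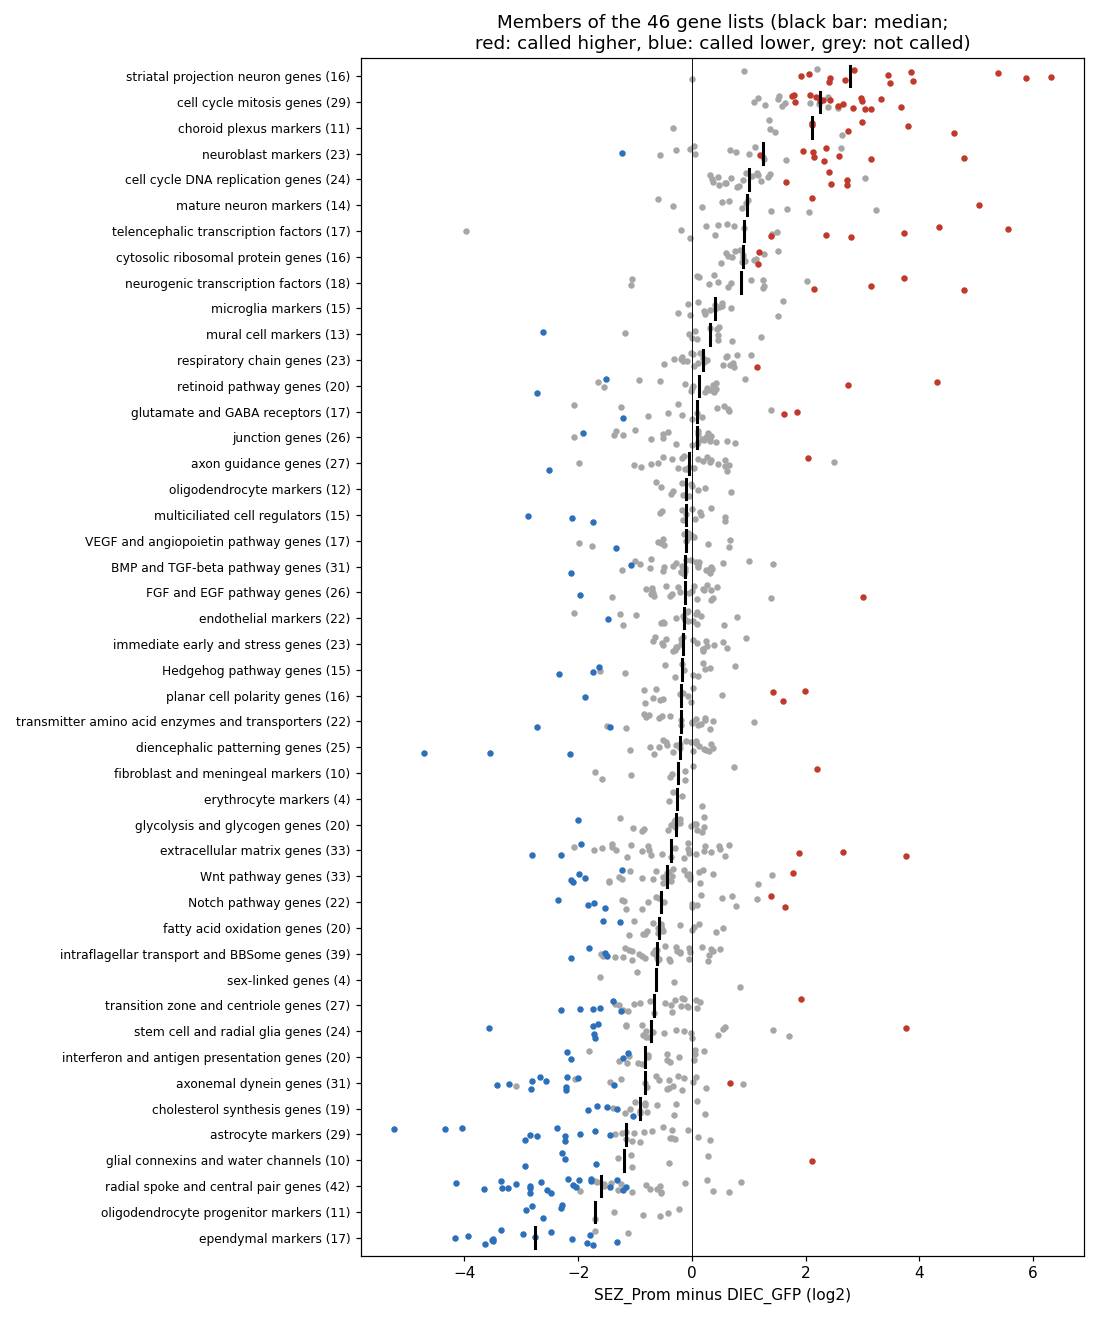
Difference of SEZ_Prom minus DIEC_GFP (log2, horizontal) for each measured member of the 46 gene lists, ordered by the list's median (black bar), with the number of members in brackets; red members are called higher, blue called lower and grey not called. Striatal, mitosis and choroid plexus genes lie at the top (medians 2.77, 2.26 and 2.12) and ependymal genes at the bottom (-2.76).

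Among signalling genes, the Hedgehog pathway had 3 of 15 members called lower, against 2.98% of all genes, and none higher. Ptch1, the Hedgehog receptor and a target of the pathway, read 616 and 530 against 2978, 4046, 3815 and 1518, or 5.06-fold lower (-2.34 ± 0.33, adjusted p = 0.00192). It was also lower in SEZ_GFP than in DIEC_GFP (-1.99, adjusted p = 0.00245) and did not pass between SEZ_Prom and any other SEZ sort. Gli1, a target and effector of the pathway, read 26 and 27 against 89, 62, 152 and 74 (-1.74 ± 0.41, adjusted p = 0.0272), and the co-receptor Boc was 3.09-fold lower (adjusted p = 0.00921). No SEZ_Prom array reached a DIEC_GFP array in any of the 3. Without SEZ_Prom replicate 1 the call of Ptch1 alone remained, since those of Gli1 (adjusted p = 0.18) and Boc (0.0987) ended, as they did without replicate 2 (0.146 and 0.061). That of Gli1 also ended without DIEC_GFP replicate 1 (0.0502), and the 3' to 5' covariate ended those of Gli1 (0.283) and Ptch1 (0.119), which left 1.

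Of 22 Notch pathway genes 4 were called lower and 2 higher, against 2.98% and 3.35% of all genes. Heyl, a Notch target, read 42 and 23 against 267, 120, 178 and 113 (-2.36 ± 0.45, adjusted p = 0.00921), and both SEZ_Prom arrays lay below all 4 DIEC_GFP arrays. Without SEZ_Prom replicate 2 no member of the pathway was called and that of Heyl ended (adjusted p = 0.117); without replicate 1, 2 were lower and none higher. Without DIEC_GFP replicate 1, 2 or 4, 1 was higher, and without replicate 3 none. The covariate left no Notch gene lower and 1 higher, and the call of Heyl ended (0.41). Of 33 Wnt pathway genes 5 were lower and 1 higher, and none was called with either SEZ_Prom array left out. Without DIEC_GFP replicate 3, 2 were lower, and without replicate 4, 3 were lower and 2 higher. The covariate left no Wnt gene called. Of 31 BMP and TGF-beta genes 2 were lower, against 2.98% of all genes, a small count that is not read as a trait of the list. Among them was the ligand Bmp4 (4.34-fold, adjusted p = 0.0128), whose call ended without SEZ_Prom replicate 1 (0.14) or 2 (0.0635). That count was 1 without DIEC_GFP replicate 1, 3 or 4 or SEZ_Prom replicate 1, and 0 without SEZ_Prom replicate 2 or with the covariate (Bmp4, 0.141). The retinoid receptor gene Rxrg, which striatal neurons express, read 830 and 731 against 78, 24, 33 and 38, or 19.9-fold higher (4.31 ± 0.48, adjusted p = 0.000469). Efnb2, a membrane ligand of Eph receptors, read 236 and 217 against 79, 42, 45 and 62 (2.04 ± 0.27, adjusted p = 0.0015). In Rxrg and Efnb2 both SEZ_Prom arrays lay above every DIEC_GFP array.

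Cholesterol synthesis genes were called lower in SEZ_Prom for 5 of 19 members, against 2.98% of all genes, and higher for none. Their median was -0.92. Sqle, the squalene epoxidase, read 633 and 489 against 1640, 2786, 1992 and 1630 (-1.82 ± 0.31, adjusted p = 0.00531), and Nsdhl, a later enzyme, was 3.18-fold lower (adjusted p = 0.00717). The groups were apart in Sqle. Without SEZ_Prom replicate 2 no member was called, with Sqle at an adjusted p of 0.0652 and Nsdhl at 0.0866. The count was 2 without SEZ_Prom replicate 1 and 3 without DIEC_GFP replicate 1 or 2. The 3' to 5' covariate left 0 (Sqle 0.243, Nsdhl 0.0628). Of 16 ribosomal protein genes 2 were called higher, against 3.35% of all genes, yet all 16 differences were positive with a median of 0.90. That count was 0 with either SEZ_Prom array left out, 5 without DIEC_GFP replicate 1, 1 without replicate 2 or with the covariate, and 4 without replicate 3.

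Among the remaining lists, 4 of 20 interferon and antigen presentation genes were called lower and none higher. In each direction 3 of 33 extracellular matrix genes were called. Of all genes 2.98% were called lower and 3.35% higher, so the matrix counts are not read as a trait of the list. Of 16 planar cell polarity genes 3 were higher and 1 lower. The other lists, on growth factors, vessels, retinoids, energy metabolism, transmitters and their receptors, junctions and axon guidance, had at most 2 members called in either direction. The interferon count was 0 without SEZ_Prom replicate 1 and 1 without SEZ_Prom replicate 2 or DIEC_GFP replicate 3. With either SEZ_Prom array left out 1 matrix gene was lower, and without DIEC_GFP replicate 3 or 4, 5 were. No polarity gene was called higher without SEZ_Prom replicate 1, and 1 was without replicate 2. The 3' to 5' covariate left 2 interferon genes lower, 2 matrix genes higher and none lower, 1 polarity gene higher and none lower, and at most 1 member in either direction of each of the other lists.

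The other SEZ sorts show where SEZ_Prom stood. These comparisons share the SEZ_Prom arrays with the one above, so they are given side by side. The shares of all genes called higher and lower in SEZ_Prom were 2.76% and 4.40% against SEZ_GFPprom, 4.15% and 2.81% against SEZ_GFP, and 3.43% and 2.10% against SEZ_CD24. Of the 16 striatal genes 3, 11 and 5 were called higher in SEZ_Prom than in these 3 sorts and none lower, with median differences of 1.09, 2.60 and 1.78. Ppp1r1b passed in all 3, with 1.99 against SEZ_GFPprom (adjusted p = 0.013), 2.95 against SEZ_GFP (0.006) and 2.38 against SEZ_CD24 (0.017). Scn4b (1.20, adjusted p = 0.303), Rasd2 (1.05, 0.417) and Gng7 (0.89, 0.288) did not pass against SEZ_GFPprom. They passed against SEZ_GFP (0.0199, 0.035 and 0.0195) but not against SEZ_CD24. The summed striatal intensity was 5044 to 12686 in SEZ_GFPprom, 2678 to 3374 in SEZ_GFP and 3776 to 8999 in SEZ_CD24, below SEZ_Prom in every array. Of the 11 choroid plexus genes 6, 8 and 1 were called higher in SEZ_Prom and none lower. Kl differed by 3.63 from SEZ_GFPprom (adjusted p = 2.5e-05) and by 0.63 from SEZ_CD24 (0.23).

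Ependymal markers differed between the prominin sorts. All 17 were called lower in SEZ_Prom than in SEZ_GFPprom, with a median of -4.30, whereas 1 was called higher than in SEZ_GFP and 1 higher than in SEZ_CD24, and none lower than in either. Foxj1 differed by -3.80 from SEZ_GFPprom (adjusted p = 5.6e-05), by -0.07 from SEZ_GFP (0.96) and by 0.09 from SEZ_CD24 (0.93). Prom1 itself did not pass between the prominin sorts (-0.96, adjusted p = 0.26). Mitosis genes, higher than in DIEC_GFP, were called lower than in SEZ_GFPprom for 8 of 29, in SEZ_GFP for 14 and in SEZ_CD24 for 3, and higher for none. Neuroblast genes were called lower for 2 of 23, 11 and 16 and higher for none. Sox11 differed by -2.01 from SEZ_GFP (adjusted p = 0.011) and by -2.08 from SEZ_CD24 (0.012). Mature oligodendrocyte markers were called higher in SEZ_Prom for 6 of 12, 9 and 10, and lower for none.

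**Figure D4:**
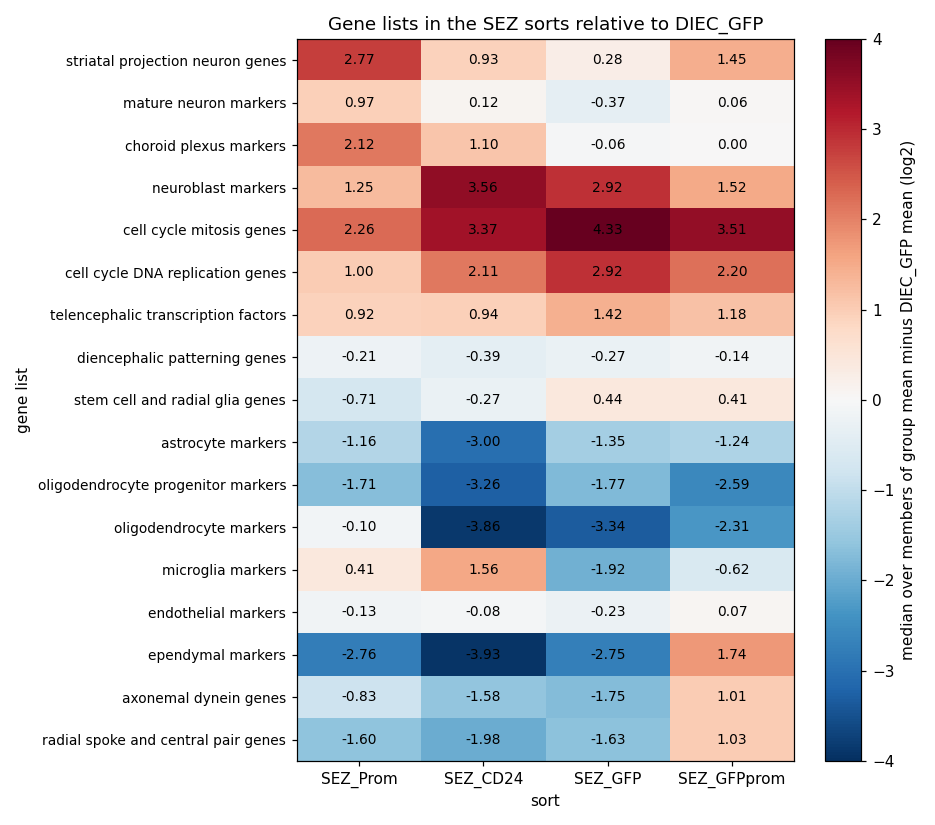
Median over list members of the group mean minus the DIEC_GFP mean (log2, colour and number) for 17 gene lists (vertical) in the 4 SEZ sorts (horizontal). SEZ_Prom has the highest medians of striatal genes (2.77) and choroid plexus genes (2.12), while the ependymal median is positive in SEZ_GFPprom alone (1.74).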

How the data were processed

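RNA of sorted cells was measured on 14 arrays. The deposited values are array intensities made by RMA, per the submitters' processing notes (version not given in the sources used here); they are linear and rounded to whole numbers, though the plan had assumed log2, so log2 was taken with no pseudocount. Of 45101 probe sets, 34945 with 1 gene symbol gave 18193 genes, each by its brightest probe set over all arrays. The genes were fitted with limma 3.58.1 in R 4.3.3 (lmFit, contrasts.fit, eBayes; 14 arrays, a mean per group, 9 residual degrees of freedom), two-sided, with Benjamini-Hochberg adjustment over all genes and a threshold of 0.05. The fit was tested on simulated data. Depth does not apply to arrays.

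Of 965 list entries 887 were measured. The rule for named genes took, from called genes with groups apart and a brighter mean of at least 100, the 15 highest and 15 lowest differences, the sorting genes, up to 4 called members per list and direction by adjusted p, and defining markers; the text prints part of them. Members and lists were chosen with earlier results of these data known. Among the 84 named called genes with several probe sets, 15 had every probe set called the same way. None had a probe set called the opposite way. Deviations of same-numbered arrays correlated at 0.0365 and -0.188. The deviations of the 2 SEZ_Prom arrays mirror each other, so this check cannot decide whether replicate numbers pair the arrays. Promoters came from RefSeq (GRCm38.p6). Alternatives were other normalizations, filters, probe set rules, fits and weights, the 3' to 5' covariate, and each array left out.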

Additional observations from a re-analysis of the deposited data

Results flagged for a closer look

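Of 155 named genes 9 had a DIEC_GFP array far from the rest of its group. The gap over the group's range, taken on log2 values while the intensities shown are linear, lay above Dixon's critical value for 4 samples. Chance gives such a gap in about 1 group in 20. The far array was replicate 4 in 5 genes: Snap25 (20 against 438 to 552, gap 0.93), Mki67 (151 against 22 to 28, 0.875), Etnppl (351 against 1591 to 1976, 0.875), Kcnj16 (59 against 262 to 324, 0.875) and Pecam1 (6 against 7 in each, 1.0). Replicate 1 was far in Scn4b (83 against 16 to 20, 0.864) and Dlgap2 (37 against 6 to 7, 0.915). Replicate 2 was far in Msmo1 (2417 against 1165 to 1301, 0.849) and replicate 3 in Slc4a5 (7 against 6 in each, 1.0). The gaps of Pecam1 and Slc4a5 are steps of 1 unit in rounded values near background.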

How the results depend on the processing

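With values under 10 set to 10, quantile, equal-median or loess normalization, without the dimmest 25% or 50% of genes, with other probe set rules, array weights or a trend and robust prior, the counts stayed within 1.5 times 609 higher and 542 lower. A fit of SEZ_Prom and DIEC_GFP alone, with fewer arrays behind the spread, called 280 and 258, and the 3' to 5' covariate 362 and 217. Leaving out 1 array of either group gave 194 to 617 higher and 157 to 595 lower, and the lowest counts were without SEZ_Prom replicate 1. A replicate block by title number called 443 and 407, and a random one by description number 591 and 499. Whether either number pairs the arrays is not known. Of the 146 named calls 66 were kept with the covariate, and 70 and 73 without SEZ_Prom replicate 1 or 2. Lamb1 changed sign without probe sets of shared sequence (-0.060, adjusted p = 0.899); there another probe set stands for the gene. Values near an intensity of 10 hold few steps, which limits differences of dim genes.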
